A study of Arabidopsis thaliana with 12 samples.

Results

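The xyloglucan endotransglucosylase/hydrolase (XTH) family of Arabidopsis thaliana was examined across shoots and roots of seedlings with normal and raised expression of the clock gene CCA1. Members were the rows of the deposited gene table that carry the locus identifiers of XTH1 to XTH33, and all 33 were found among 33010 genes. RNA was sequenced from wild-type Col-0 (WT) plants and from plants that overexpress CCA1 (CCA1-ox), with shoots and roots taken separately. The 4 groups were WT shoots, CCA1-ox shoots, WT roots and CCA1-ox roots, with 3 libraries each. All plants were 8 days old and were kept in continuous white light from fluorescent lamps, at 15 µE and 22 °C. The promoter that drives the CCA1 transgene, the number of lines and the hour of harvest were not given in the sources used here. Library totals ran from 27142671 to 45051329 fragments summed over genes. No label names separate cultures, so the p-values describe the spread between these libraries, which may be technical.

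CCA1 (AT2G46830), a MYB transcription factor of the morning phase of the clock, checked the labels. In shoots its level was 45.0 ± 0.202 FPKM in WT and 214 ± 1.98 in CCA1-ox plants, and in roots 17.1 ± 0.838 and 175 ± 4.36 (mean ± SD, n = 3). The 6 leaf photosynthetic markers summed to 38510.0 to 38550.0 FPKM over the WT shoot libraries and to 43.2 to 46.1 over the WT root libraries. The 7 root hair markers summed to 87.7 to 92.9 FPKM in WT roots, to 0.0220 to 0.0945 in WT shoots and to 0.101 to 0.243 in CCA1-ox shoots, with EXPA7, RSL4 and LRX1 at 0 in all 6 shoot libraries. The shoots and roots thus carried the markers of their labels.

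Xyloglucan is the main hemicellulose of the primary cell wall in dicots, where it coats and links cellulose microfibrils. XTH enzymes cut a xyloglucan chain and join the cut end to another chain (endotransglucosylase activity) or to water (hydrolase activity), and so rebuild the wall while cells enlarge. By sequence the family is commonly split into group 1 (XTH1 to XTH11), group 2 (XTH12 to XTH26) and group 3 (XTH27 to XTH33), and XTH31 and XTH32 of group 3 are the members of the hydrolase type. Many members respond to auxin, brassinosteroid, touch or shade, and the family is best known for its part in hypocotyl, petiole and root elongation.

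Shoots and roots differed in their leading members, while others such as XTH8 and XTH27 were abundant in both. Levels are given as FPKM, the fragments of a gene divided by its length and by the library size, so that genes of different length can be set side by side. The 33 members summed to 1033 ± 4.43 FPKM in shoots of WT and 1182 ± 2.62 in shoots of CCA1-ox plants, and to 518 ± 6.62 and 576 ± 2.22 in the respective roots (mean ± SD, n = 3). The library size behind these FPKM was on average 0.906 and 0.976 times the summed fragments in WT and CCA1-ox shoots. In the respective roots it was 1.15 and 1.10 times, so differences between the 4 family sums depend on the scaling. In WT shoots XTH4, XTH7 and XTH9 held 62.2% of the family sum. In WT roots the leading members XTH30, XTH31 and XTH24 held 30.9%, so the root total was spread over more genes. In CCA1-ox shoots XTH24 moved up to the third rank with 11.8% of the sum, and XTH31 to the fifth with 7.82%.

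**Figure D1:**
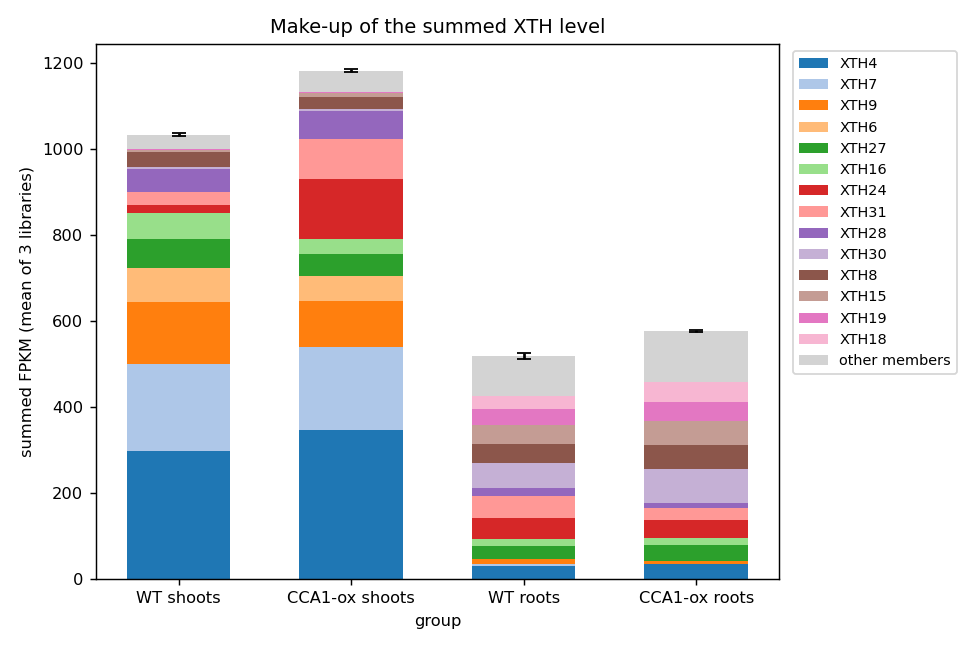
Stacked bars give the mean FPKM of 14 named members and of all other members in each of the 4 groups, on an axis from 0, and the black error bar is the SD of the summed level over 3 libraries. The WT shoot bar reaches 1033 FPKM and is mostly XTH4, XTH7 and XTH9, while the WT root bar reaches 518 and has no such block.

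Of the 33 members, 27 reached an FPKM of 1 in 3 or more libraries and were tested: 8 of 11 in group 1, 13 of 15 in group 2 and 6 of 7 in group 3. A member that passes only through the group where it is high is bound to differ between groups, so the counts over tested members are a description. The tests were limma fits to log2(FPKM + 1) over all 20975 genes tested, with p-values adjusted by Benjamini-Hochberg, and calls were made at an adjusted p under 0.05. Fold changes on this scale understate the change of low genes. Statements that libraries of groups did not overlap are a description too, as the share of such genes over the whole table was not computed. XTH1 and XTH3 had 0 fragments in every library. XTH3 is known for joining cellulose as well as xyloglucan. XTH11 ranged from 0.0205 to 0.275 FPKM over all libraries, XTH33 from 0.284 to 0.888, XTH25 from 0 to 1.03 and XTH26 from 0 to 0.568. XTH26, a root hair enzyme, gave fragments in every root library (5, 17 and 17 in WT and 20, 14 and 15 in CCA1-ox) and in no shoot library. XTH25 had 20, 27 and 16 fragments in WT shoots and 25, 45 and 33 in CCA1-ox shoots, against a single fragment in all 6 root libraries.

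**Figure D2:**
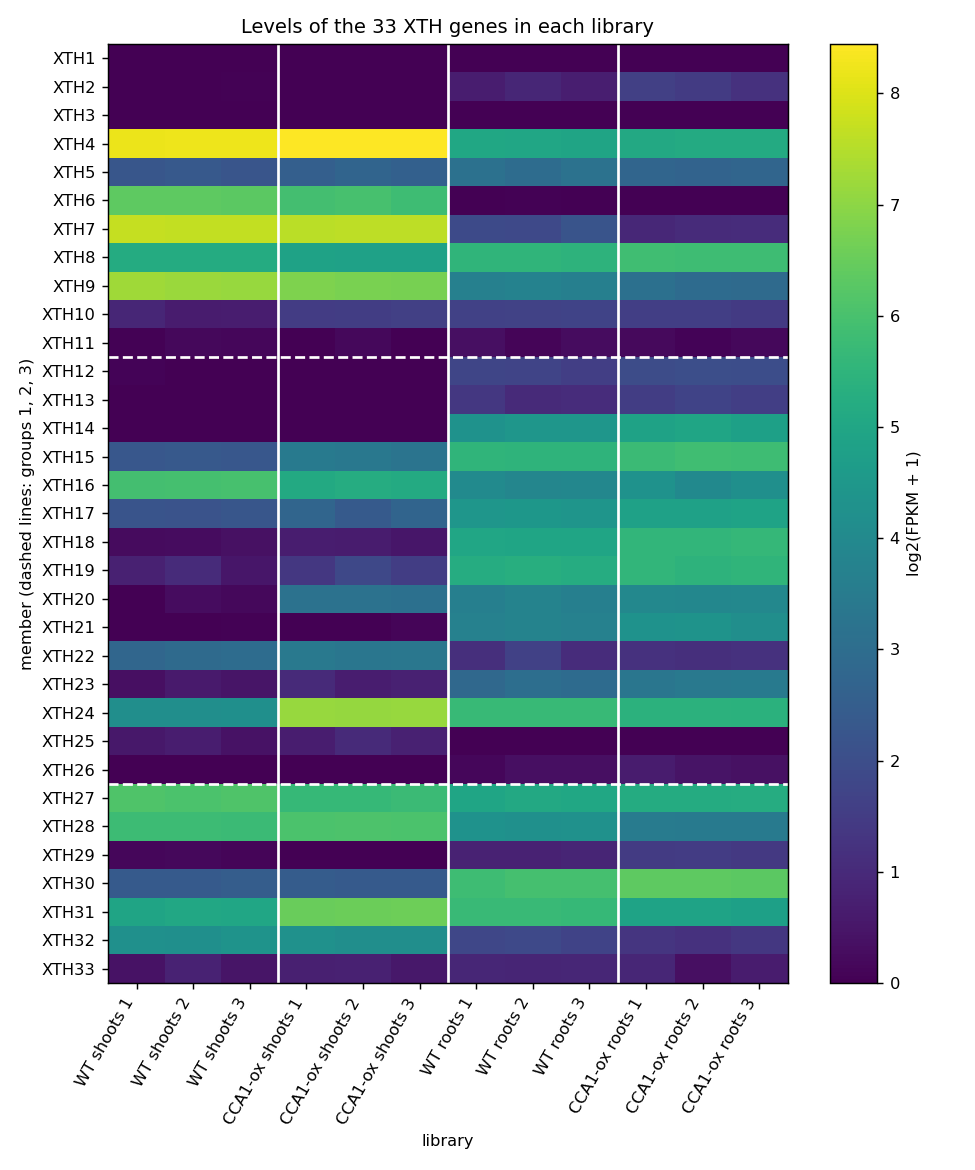
The colour of each cell is log2(FPKM + 1) of 1 member (rows, XTH1 at the top) in 1 library (columns), with white lines between the 4 groups of 3 libraries and dashed lines between groups 1, 2 and 3. XTH24 brightens from WT to CCA1-ox shoots, and XTH14, XTH18 and XTH21 are dark in shoots and brighter in roots.

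In WT plants every tested member differed between the organs. Of the 27, 18 were higher in roots and 9 were higher in shoots. Of all genes tested 87.2% were called, 45.3% as higher in roots and 41.8% as lower. The median log2 difference of roots minus shoots was 0.82 over the tested members and 0.035 over all genes. Rescaling to the summed fragments raised the latter to 0.33, and the share of called genes that were higher in roots from 52.0% to 65.6%. All 27 member calls kept their direction under that scaling.

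The shoot members were led by group 1. XTH4, which acts in secondary growth of the stem as well as in the primary wall, stood at 295, 298 and 296 FPKM in WT shoots and at 31.6, 30.7 and 29.6 in WT roots (log2 fold change −3.23, SE 0.0254, adjusted p = 2.77e-19). XTH7 stood at 205, 201.1 and 202 FPKM in WT shoots and at 2.70, 2.65 and 3.61 in WT roots (log2 fold change −5.68). XTH9, known from the shoot apex and elongating stems, stood at 149, 142 and 141 FPKM in WT shoots and 11.8, 12.3 and 11.7 in WT roots (−3.49). Every WT shoot library of these genes exceeded every WT root library. XTH6 stood at 80.2, 80.7 and 77.8 FPKM in WT shoots and gave 0, 3 and 0 fragments in the WT root libraries. It reached FPKM 1 in shoot libraries alone, so passing the filter fixed its direction between organs in advance. XTH16 of group 2 stood at 60.1, 60.4 and 61.9 FPKM in WT shoots and 15.6, 13.6 and 14.1 in WT roots (−2.00). XTH32, of the hydrolase type, stood at 18.1, 17.4 and 19.0 FPKM in WT shoots and 2.46, 2.64 and 2.28 in WT roots (−2.47). Every shoot library again exceeded every root library. XTH22, XTH27 and XTH28 were the other members that were higher in WT shoots, with log2 differences of −1.62, −1.08 and −1.51.

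The root members came mostly from group 2, where 11 of 13 tested genes were higher in roots, against 45.3% of all genes tested. Of these, XTH12, XTH13, XTH14, XTH18 and XTH21 reached FPKM 1 in root libraries alone, so passing the filter fixed their direction in advance. Their p-values between organs are thus a description and no support. XTH18, known from roots, stood at 0.176, 0.212 and 0.316 FPKM in WT shoots and at 30.9, 30.1 and 30.3 in WT roots (log2 fold change 4.67, SE 0.0569, adjusted p = 2.25e-17). XTH19, which lies next to it, stood at 0.729, 1.06 and 0.429 and 36.6, 37.8 and 36.4 FPKM in the same libraries (4.46). Every root library exceeded every shoot library for both. XTH14, a root enzyme also found in root hairs, had no fragment in any shoot library and stood at 18.8, 20.6 and 20.8 FPKM in WT roots. Against the level that 3 fragments in a library would give, its WT root mean was at least 280.5-fold higher. XTH21, needed for normal primary root growth, had 0, 0 and 2 fragments in the WT shoot libraries and stood at 11.98, 12.8 and 12.2 FPKM in WT roots (3.71). XTH30 of group 3 stood at 4.25, 4.26 and 4.59 FPKM in WT shoots and 55.0, 60.8 and 60.9 in WT roots (3.48), and was the most abundant member there. XTH12 and XTH13 were low but seen in all root libraries, at 2.25 ± 0.227 and 1.24 ± 0.308 FPKM in WT roots, while XTH12 gave 3 fragments in all WT shoot libraries together and XTH13 none.

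In CCA1-ox shoots more members rose than fell. Of the 27 tested, 13 rose and 5 fell, while of all genes tested 26.6% rose and 28.9% fell, 55.5% in all. The median log2 fold change was 0.020 over the tested members and −0.0083 over all genes. The remaining 9 did not pass, and of these XTH13 and XTH14 had no fragment in any shoot library. Over all genes 48.0% of calls were rises as deposited and 66.0% after rescaling to the summed fragments. In bulk tissue a change in the number of cells of a type and a change in the RNA of each cell cannot be told apart.

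XTH24 (AT4G30270, chromosome 4, 14819192 to 14820595, TAIR10), a gene of meristems and elongating tissue first described as MERI5, had the largest rise in fragments. It stood at 17.1, 17.0 and 17.7 FPKM in the WT shoot libraries and at 141, 138 and 141 in the CCA1-ox ones. The groups were far apart and the mean was 8.10-fold higher (log2 fold change 2.95, SE 0.0242, adjusted p = 4.01e-17). XTH20 (AT5G48070, chromosome 5, 19481897 to 19483527), a vascular member also involved in the healing of cut stems, was nearly silent in WT shoots with 0, 12 and 8 fragments. It gave 413, 423 and 425 fragments in the CCA1-ox libraries, which is 0, 0.228 and 0.142 against 8.08, 8.14 and 7.76 FPKM (log2 fold change 3.01, SE 0.0697, adjusted p = 5.26e-13). XTH20 in CCA1-ox shoots thus came within a factor of 1.79 of its level in CCA1-ox roots.

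XTH31 (AT3G44990, chromosome 3, 16446935 to 16448844), of the hydrolase type and known from roots under aluminium stress, stood at 29.6, 32.7 and 30.9 FPKM in WT shoots and at 89.8, 92.4 and 95.1 in CCA1-ox shoots. Its groups did not overlap and its mean was 2.98-fold higher (log2 fold change 1.54, SE 0.0418, adjusted p = 2.57e-12). XTH15 (AT4G14130, chromosome 4, 8137020 to 8138392), a shade-induced gene also named XTR7, went from 3.94, 4.07 and 3.86 to 9.87, 9.53 and 8.59 FPKM (log2 fold change 1.06, SE 0.0462, adjusted p = 3.82e-10). It overlaps AT4G14120 on the other strand, and with the strand setting of the counting not given the fragments of the pair may be mixed. No other member overlaps a gene in the table.

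Smaller rises on the log2(FPKM + 1) scale, which understates low genes, were seen in members that are low in shoots. XTH10 went from 0.859, 0.550 and 0.604 to 1.80, 1.89 and 2.02 FPKM (log2 fold change 0.80, SE 0.0781, adjusted p = 1.31e-06). XTH19 went from 0.729, 1.06 and 0.429 to 1.61, 2.59 and 1.88 FPKM (log2 fold change 0.80, SE 0.122, adjusted p = 8.01e-05). XTH22, the touch gene TCH4, went from 5.86, 6.503 and 6.97 to 9.55, 8.97 and 9.12 FPKM (log2 fold change 0.46, SE 0.116, adjusted p = 0.00433). None of these 3 overlapped between genotypes. By ratio of means they rose 2.84-, 2.74- and 1.43-fold, against 2.36-fold for XTH15. XTH5, at 3.87 ± 0.201 and 5.16 ± 0.423 FPKM, and the shade-responsive XTH17, at 3.61 ± 0.184 and 5.20 ± 0.823, rose by 0.34 and 0.42 on the log2 scale. XTH18 (log2 fold change 0.30) and XTH23 (0.33) were called at low levels, with CCA1-ox shoot means of 0.524 ± 0.0856 and 0.768 ± 0.211 FPKM, and both calls were lost with quantile normalization (0.035, adjusted p = 0.623 and 0.036, adjusted p = 0.746). With a pseudocount of 5 XTH23 again did not pass (0.094, adjusted p = 0.0577).

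Among abundant shoot members XTH4 and XTH28 rose modestly. XTH4 went from 295, 298 and 296 to 347, 345 and 347 FPKM (log2 fold change 0.22, SE 0.0254, adjusted p = 5.71e-06). XTH28, required for stamen filament growth, went from 54.8, 54.7 and 53.0 to 64.8, 66.9 and 65.6 FPKM (log2 fold change 0.28, SE 0.0295, adjusted p = 3.23e-06). The genotypes did not overlap in either gene, at ratios of means of 1.17 and 1.21.

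The 5 members that fell in shoots were XTH16, XTH6, XTH27, XTH9 and XTH8. XTH16 went from 60.1, 60.4 and 61.9 to 33.9, 36.8 and 35.0 FPKM (log2 fold change −0.77, SE 0.0639, adjusted p = 2.63e-07). XTH6 went from 80.2, 80.7 and 77.8 to 59.0, 62.1 and 55.4 (−0.43, adjusted p = 5.04e-06). XTH27, known from tracheary elements of leaf veins, went from 68.6, 65.9 and 68.5 to 49.2, 49.0 and 52.6 (−0.42, adjusted p = 5.78e-07). In each the highest CCA1-ox library lay below the lowest WT library. XTH9 went from 149, 142 and 141 to 112, 105 and 105 FPKM (−0.42, adjusted p = 6.37e-06). XTH8 went from 35.6, 35.8 and 35.9 to 28.4, 27.4 and 27.2 (−0.36, adjusted p = 1.78e-07). All these calls held under every alternative tried.

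XTH7, the second most abundant member of WT shoots, did not pass, at 191, 195 and 192 FPKM in the CCA1-ox libraries (log2 fold change −0.073, SE 0.0688, adjusted p = 0.398). It was called lower by voom on recovered fragments (−0.072, adjusted p = 0.0124) and in the fit of shoots alone (−0.073, adjusted p = 0.00760), and its direction turned upward with quantile normalization and with rescaling to the summed fragments. XTH30 stood at 4.52, 4.23 and 4.29 FPKM in CCA1-ox shoots (log2 fold change −0.0045, SE 0.0445, adjusted p = 0.954), and XTH32 at 18.4, 17.2 and 16.9 (log2 fold change −0.053, SE 0.0609, adjusted p = 0.499). In both genes the genotypes overlapped. XTH29 gave 5, 7 and 4 fragments in WT shoots and 1, 1 and 1 in CCA1-ox shoots, which did not pass on the main scale (adjusted p = 0.176) but was called lower with a pseudocount of 0.1 (−0.75, adjusted p = 0.00116), with quantile normalization (−0.32, adjusted p = 0.00253) and with voom (−1.90, adjusted p = 0.0180). XTH2, XTH12 and XTH21 had at most 4 fragments in any shoot library.

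Markers of vascular and endodermal cells rose in CCA1-ox shoots, where XTH members both rose and fell. All 7 xylem markers and all 7 endodermis markers were higher in CCA1-ox shoots, where 26.6% of all genes tested rose and 28.9% fell. The xylem list summed to 69.8 to 71.3 FPKM over the WT libraries and 126 to 127 over the CCA1-ox ones, and the endodermis list to 19.7 to 21.0 and 38.3 to 45.1, with no marker of either list at 0. None of the 7 root hair markers was called in shoots, where their sum stayed under 1 FPKM in every library. Of 5 root organ markers IRT1, FRO2 and CASP1 rose and none fell, with sums of 5.39 to 7.10 and 11.4 to 14.9 FPKM, most of which is CASP1 (4.78 ± 0.918 and 11.7 ± 2.101), a gene also in the endodermis list. PIN2 stood at 0.989 ± 0.0644 and 0.827 ± 0.141 FPKM, and 1 gene of the list was called lower with a pseudocount of 0.1, with quantile normalization and without CCA1-ox shoot replicate 2. In the fit of shoots alone 1 gene of the list rose, CASP1, and the others were not tested, as they did not reach FPKM 1 in 3 shoot libraries. Of the 6 leaf photosynthetic markers 1 rose and 3 fell, but the count of rises ran from 0 with a pseudocount of 0.1 to 3 with quantile normalization or rescaling, and was 2 without WT root replicate 1 or 3 or CCA1-ox root replicate 2 or 3. With quantile normalization 1 fell. Their sum ran from 30090.0 to 30620.0 FPKM over the CCA1-ox shoot libraries. The part of these cell types in the XTH results was not tested.

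CCA1 binds DNA, so the upstream sequence is shown for XTH15, XTH20 and XTH31, which are among the members that changed at least 2-fold on the log2(FPKM + 1) scale in shoots, and not all of them. Each run is the 250 bases that end just before the annotated gene start, read 5′ to 3′ on the gene's strand from the RefSeq TAIR10.1 genome, in which all 33 members have the positions given in the deposited table for TAIR10. Capitals mark a match to the CCA1-binding site AAAATCT on either strand. The evening element AAAATATCT and the G-box CACGTG were searched on both strands in the same way and neither is present in these runs. None of the 3 motifs contains another. In XTH15 the match lies on the opposite strand.
XTH15, chr4:8138393-8138642, minus strand: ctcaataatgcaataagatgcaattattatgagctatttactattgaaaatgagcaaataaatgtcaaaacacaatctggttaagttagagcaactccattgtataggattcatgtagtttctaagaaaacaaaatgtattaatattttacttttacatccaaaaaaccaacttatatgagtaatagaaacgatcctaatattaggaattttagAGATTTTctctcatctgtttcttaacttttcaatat
XTH20, chr5:19481647-19481896, plus strand: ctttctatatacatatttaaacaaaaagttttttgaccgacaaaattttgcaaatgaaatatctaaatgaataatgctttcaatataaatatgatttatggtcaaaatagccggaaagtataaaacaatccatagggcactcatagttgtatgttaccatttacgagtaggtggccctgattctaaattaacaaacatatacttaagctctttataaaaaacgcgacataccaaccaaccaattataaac
XTH31, chr3:16448845-16449094, minus strand: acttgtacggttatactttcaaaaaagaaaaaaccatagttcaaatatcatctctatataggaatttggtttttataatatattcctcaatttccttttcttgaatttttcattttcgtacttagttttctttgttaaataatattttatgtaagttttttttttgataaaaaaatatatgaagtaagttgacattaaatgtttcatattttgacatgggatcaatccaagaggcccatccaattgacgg

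Of these 3 members XTH15 alone holds the CCA1-binding site in the window, and XTH20 and XTH31 hold none of the 3 motifs there. Over the family the site was found in the 250 bases of 7 of 33 members (XTH1, XTH7, XTH8, XTH13, XTH15, XTH22 and XTH32), against 16.0% of 32721 windows of the same length upstream of genes on chromosomes 1 to 5. In 1000 bases 21 members held it, against 46.9% of all windows. The G-box was in no member's 250 bases and in 4 members' 1000 bases (XTH7, XTH8, XTH25 and XTH30), against 5.90% and 14.1% of all windows. The windows of 1000 bases can run into neighbouring genes. XTH22 starts 565 bases from XTH25, whose G-box and CCA1-binding site, 777 and 828 bases upstream, lie within XTH22. The evening element was in no member's 250 bases and in the 1000 bases of 2 members, against 2.22% and 6.93% of all windows. Those were XTH9, with the match 287 bases upstream, and XTH22, with the match 628 bases upstream, shown here with the element in capitals and 10 bases on each side, read on the gene's strand (XTH9 carries it on the opposite strand).
XTH9, chr4:1415320-1415348, plus strand: caaagccagaAGATATTTTattgccacaa
XTH22, chr5:23309290-23309318, minus strand: ttcgtaaagaAAAATATCTacaaaaaaac
A match is a description of these letters and not a site shown to be bound.

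In roots, too, more members rose than fell in CCA1-ox plants. Of the 27 tested, 16 rose and 7 fell, while of all genes tested 20.8% rose and 15.4% fell, 36.3% in all. The median log2 fold change was 0.25 over the tested members and 0.016 over all genes. The share of rises among all called genes was 57.4% as deposited and 38.8% after rescaling to the summed fragments, while the member rises numbered 15 and the falls 7 under that scaling.

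The falls ranged from −0.97 to −0.27 and the rises from 0.16 to 0.65 on the log2 scale. XTH7 went from 2.70, 2.65 and 3.61 FPKM in WT roots to 0.937, 1.04 and 1.08 in CCA1-ox roots (log2 fold change −0.97, SE 0.0688, adjusted p = 1.53e-07). XTH31 went from 51.5, 52.1 and 48.9 to 29.1, 28.6 and 26.8 (log2 fold change −0.83, SE 0.0418, adjusted p = 5.55e-09), and its mean level was 1.81-fold higher in WT. XTH28 went from 18.8, 18.1 and 18.2 to 10.4, 10.1 and 10.3 (log2 fold change −0.78, SE 0.0295, adjusted p = 3.21e-10). The CCA1-ox libraries lay below all WT libraries for each of these. XTH9 went from 11.8, 12.3 and 11.7 to 7.67, 6.76 and 6.61 FPKM (log2 fold change −0.69, SE 0.0481, adjusted p = 1.25e-07). XTH32 went from 2.46, 2.64 and 2.28 to 1.49, 1.30 and 1.59 FPKM (−0.49, adjusted p = 2.95e-05), so that both hydrolase-type members fell. XTH24 went from 50.3, 50.4 and 50.4 to 42.2, 41.7 and 41.3 (log2 fold change −0.27, SE 0.0242, adjusted p = 1.79e-06). The genotypes did not overlap for any of these 3 either. XTH5 was at 7.64 ± 0.610 and 5.65 ± 0.216 FPKM (−0.38, adjusted p = 6.28e-04).

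Rises were found in 10 of the 13 tested group 2 members. XTH18 went from 30.9, 30.1 and 30.3 to 46.3, 46.2 and 48.4 FPKM (log2 fold change 0.61, SE 0.0569, adjusted p = 2.18e-06). XTH21 went from 11.98, 12.8 and 12.2 to 18.6, 19.0 and 17.2 (log2 fold change 0.53, SE 0.0608, adjusted p = 1.41e-05). XTH14 went from 18.8, 20.6 and 20.8 to 28.3, 30.0 and 26.5 (0.48, adjusted p = 3.17e-05). In all 3 the lowest CCA1-ox library exceeded the highest WT library. XTH15 went from 44.8, 44.2 and 43.8 to 53.0, 57.2 and 55.4 FPKM (0.31, adjusted p = 1.42e-04). XTH20 went from 11.4, 12.7 and 11.6 to 14.4, 14.0 and 14.5 (0.25, adjusted p = 0.0138), which no longer passed after quantile normalization (0.22, adjusted p = 0.158), with a pseudocount of 0.1 (0.26, adjusted p = 0.566) and without WT root replicate 1 (0.22, adjusted p = 0.0583). XTH17 was at 20.7 ± 0.443 and 27.9 ± 0.772 FPKM (0.41), XTH23 at 6.75 ± 0.450 and 9.44 ± 0.468 (0.43), XTH12 at 2.25 ± 0.227 and 3.0 ± 0.110 (0.30) and XTH13 at 1.24 ± 0.308 and 2.03 ± 0.192 (0.44). With a pseudocount of 0.1 the calls of XTH12 (0.40, adjusted p = 0.0779), XTH21 (0.56, adjusted p = 0.0725) and XTH23 (0.48, adjusted p = 0.0713) were lost as well.

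XTH16 went from 15.6, 13.6 and 14.1 to 18.7, 15.2 and 17.4 FPKM, with overlapping libraries (log2 fold change 0.23, SE 0.0639, adjusted p = 0.0128). Its call was lost after rescaling to the summed fragments (0.17, adjusted p = 0.0630), without WT root replicate 2 (0.19, adjusted p = 0.0601) and without CCA1-ox root replicate 1 (0.17, adjusted p = 0.0604). XTH19, next to XTH18 on the chromosome, went from 36.6, 37.8 and 36.4 to 45.9, 42.7 and 45.2 FPKM and did not pass (log2 fold change 0.26, SE 0.122, adjusted p = 0.111). It was called higher with a pseudocount of 5 (0.24, adjusted p = 0.00183), in the fit of roots alone (0.26, adjusted p = 1.38e-04) and by voom (0.27, adjusted p = 5.04e-06). XTH22 went from 1.19, 2.09 and 1.10 to 1.29, 1.22 and 1.31 FPKM and XTH10 from 2.11, 2.19 and 2.28 to 1.95, 1.99 and 1.70, and neither passed (adjusted p = 0.595 and 0.163). XTH6 had no fragment in any CCA1-ox root library.

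In groups 1 and 3 the rises were those of XTH2, XTH4, XTH8, XTH27, XTH29 and XTH30. XTH30, linked to salt responses, went from 55.0, 60.8 and 60.9 to 80.3, 80.9 and 79.0 FPKM (log2 fold change 0.44, SE 0.0445, adjusted p = 4.74e-06) and stayed the most abundant root member. XTH8 went from 44.9, 45.5 and 43.4 to 57.3, 55.1 and 56.0 (log2 fold change 0.33, SE 0.0286, adjusted p = 1.26e-06). XTH2 went from 0.598, 0.894 and 0.650 to 2.01, 1.80 and 1.31 FPKM (log2 fold change 0.65, SE 0.0984, adjusted p = 1.64e-04), on 23, 41 and 29 fragments in WT and 53, 51 and 49 in CCA1-ox. All CCA1-ox libraries exceeded all WT libraries for these 3 genes. XTH29 went from 0.765, 0.740 and 0.847 to 1.79, 1.85 and 1.62 (0.63, adjusted p = 7.92e-06). XTH2 and XTH29 reached FPKM 1 in the CCA1-ox root libraries alone, so passing the filter fixed in advance that these lay above WT. Their p-values are thus a description and no support. XTH27 went from 29.9, 32.8 and 31.6 to 35.5, 35.4 and 36.5 FPKM (0.18, adjusted p = 0.00189). XTH4 went from 31.6, 30.7 and 29.6 to 33.5, 34.5 and 34.8 (0.16, adjusted p = 3.12e-04).

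Root hair and endodermis markers were also higher in CCA1-ox roots, where 20.8% of all genes tested rose and 15.4% fell. Of 7 root hair markers 6 rose and none fell, though 1 was called lower after rescaling to the summed fragments and without CCA1-ox root replicate 2. The list summed to 87.7 to 92.9 FPKM over the WT libraries and 123 to 127 over the CCA1-ox ones. All 5 root organ markers, of which COBL9 and CASP1 are also in the root hair and endodermis lists, rose as well (3 with a pseudocount of 0.1), with sums of 229.5 to 241 and 331 to 349 FPKM, and 4 of 6 leaf photosynthetic markers fell. All 7 endodermis markers rose, with sums of 320.1 to 335 and 455 to 483 FPKM. Of 7 xylem markers 1 rose, with sums of 214 to 216 and 215 to 217 FPKM. That single rise was lost with quantile normalization and with rescaling, each of which called 1 xylem marker lower, and on leaving out WT root replicate 1, 2 or 3 or CCA1-ox root replicate 2 or 3. No marker of the root hair, endodermis and xylem lists was at 0 in a root group. The part of these cell types in the XTH results was not tested.

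The effect of CCA1 overexpression on the family depended on the organ. In the test of the root effect minus the shoot effect, 12 of the 27 members were higher and 12 lower. Of all genes tested 50.7% were called, 27.2% higher and 23.5% lower. Here higher and lower give the sign of the difference, not the size of either effect. Over all genes the median of this difference was 0.037 as deposited and −0.11 after rescaling to the summed fragments, a shift of the whole table against which small member differences should be read. With voom the members with a higher difference numbered 5. XTH2, XTH12, XTH13, XTH14 and XTH21 had at most 4 fragments in any shoot library, and XTH6 at most 3 in any root library. For these members the difference is the effect in 1 organ set against a level near 0 in the other. The share of called genes with a higher difference was 53.6% as deposited and 29.0% after the rescaling.

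Of the 27 tested members, 7 were called in opposite directions in the organs, 7 in the same direction, 4 in shoots alone and 9 in roots alone. Over all genes tested 10.1% were called in opposite directions, 13.3% in the same direction, 32.1% in shoots alone and 12.9% in roots alone. The comparisons in shoots and in roots share no library in their means, but 1 fit of all libraries gives both the same estimate of spread. XTH19, counted in shoots alone, was called higher in the fit of roots alone (0.26, adjusted p = 1.38e-04). XTH7, counted in roots alone, was called lower in the fit of shoots alone (−0.073, adjusted p = 0.00760). XTH5, XTH24, XTH28 and XTH31 rose in shoots and fell in roots, and XTH8, XTH16 and XTH27 fell in shoots and rose in roots. XTH24 had the lowest difference (log2 fold change −3.21, SE 0.0343, adjusted p = 1.67e-15), followed by XTH20 (−2.76), XTH31 (log2 fold change −2.37, SE 0.0591, adjusted p = 2.45e-12), XTH28 (−1.06) and XTH10 (−0.95). At the other end XTH16 had the highest difference (log2 fold change 0.999, SE 0.0904, adjusted p = 9.41e-07), followed by XTH29 (0.74), XTH8 (0.68), XTH2 (0.67) and XTH27 (0.60). Here XTH29 and XTH2 passed the filter through CCA1-ox roots alone, which fixed their rise in roots in advance. XTH4, XTH15, XTH17, XTH18, XTH20 and XTH23 rose in both organs, and XTH9 fell in both. Of these XTH4 (adjusted p = 0.135), XTH17 (0.967) and XTH23 (0.551) did not pass the test of the difference. XTH4 was called lower with quantile normalization (−0.32, adjusted p = 1.57e-05), after rescaling (−0.24, adjusted p = 1.31e-04) and without WT root replicate 3 (−0.092, adjusted p = 0.0387), and XTH23 higher with quantile normalization (0.39, adjusted p = 0.0144) and with a pseudocount of 5 (0.20, adjusted p = 0.00728). XTH9 was not called with a pseudocount of 5 (−0.092, adjusted p = 0.169), nor XTH2 with voom (1.70, adjusted p = 0.164). XTH18 turned to −0.51, adjusted p = 0.312 with voom.

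**Figure D3:**
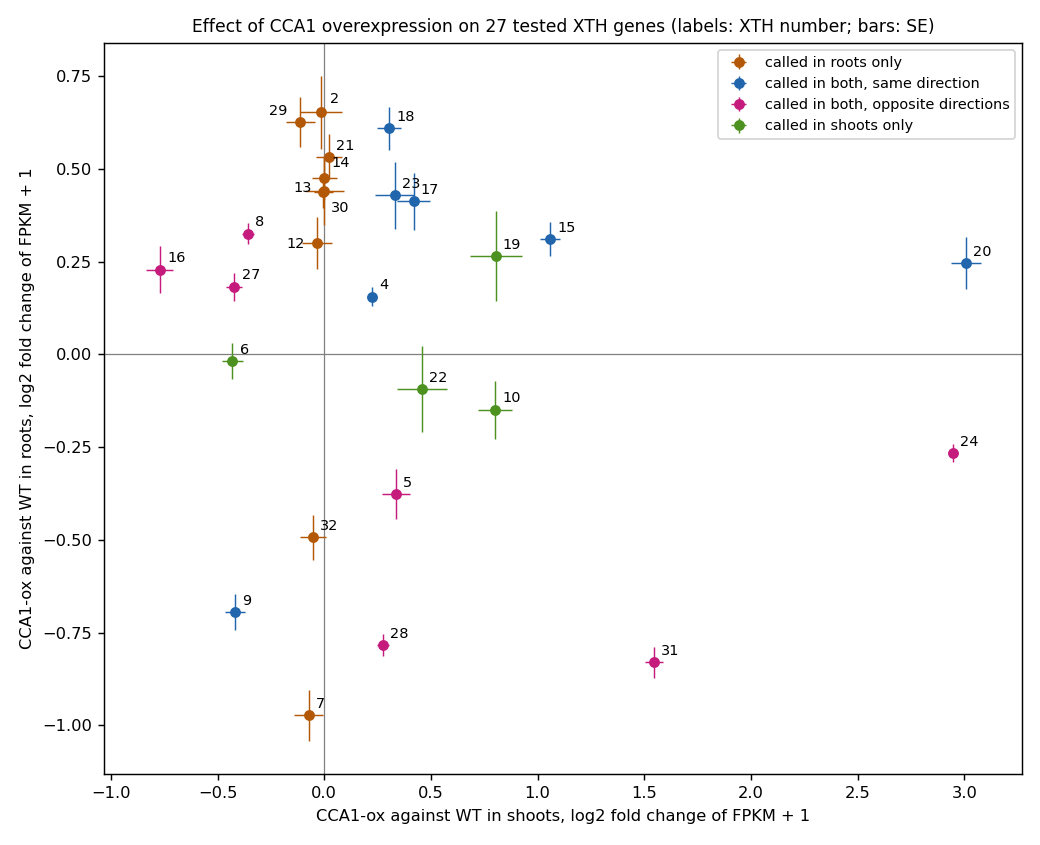
Each point is 1 of the 27 tested members, with its log2 fold change of CCA1-ox against WT in shoots on the horizontal axis and in roots on the vertical axis, SE bars, and colours for the organs in which it was called. XTH24 and XTH31 lie at lower right (shoots 2.95 and 1.54, roots −0.27 and −0.83), XTH8, XTH16 and XTH27 at upper left, and a column of root-called members sits near 0 on the shoot axis.

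**Figure D4:**
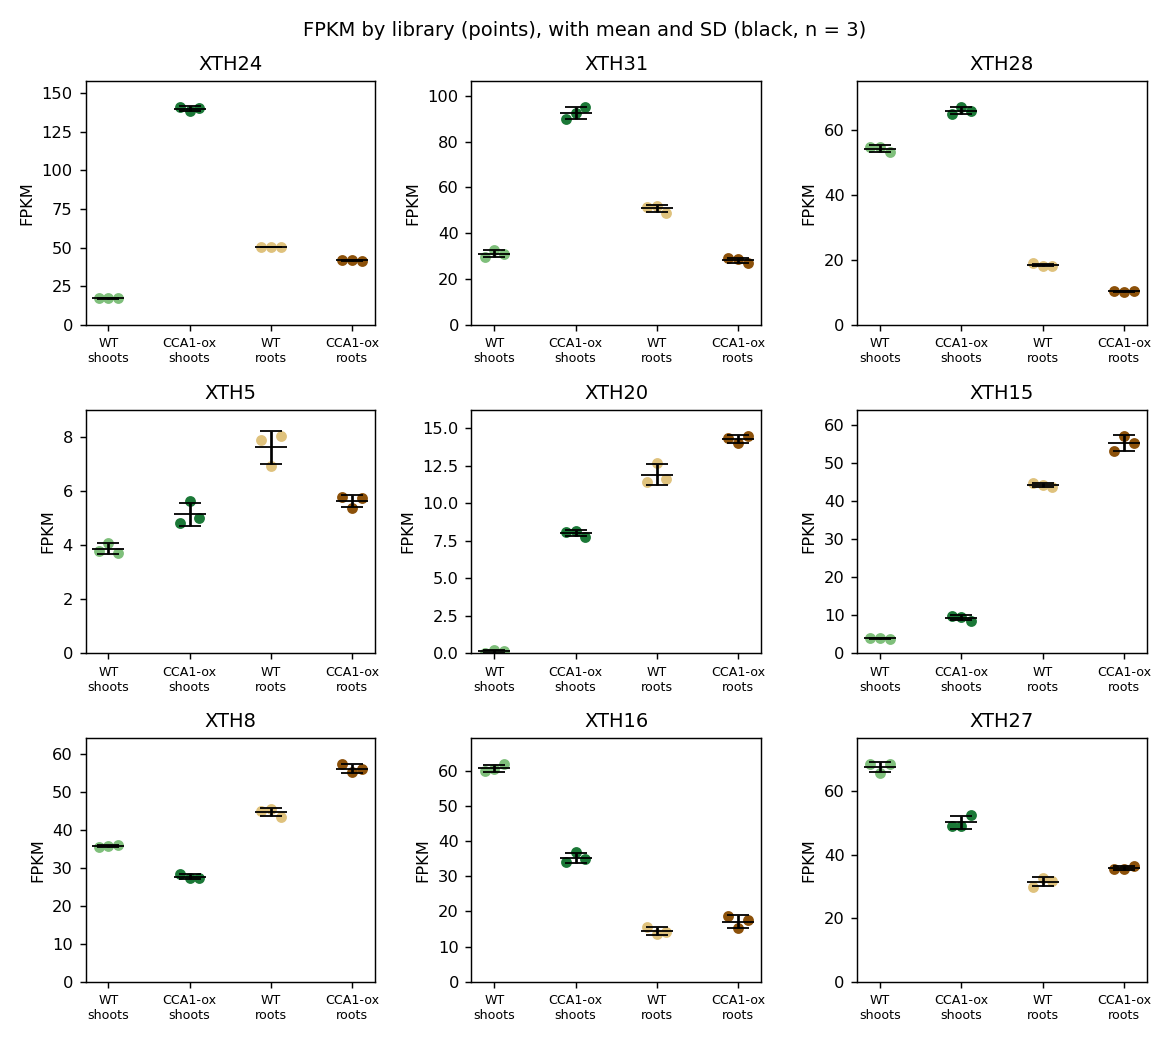
Points are FPKM of 9 members in each of the 12 libraries, on linear axes that start at 0, with black marks for the mean and SD (n = 3). In the panels of XTH24, XTH31, XTH28 and XTH5 the CCA1-ox points lie above WT in shoots and below WT in roots, and in those of XTH8 and XTH27 the order is the reverse.

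These changes altered the organ order of some members. XTH24 and XTH31 were higher in roots than in shoots in WT (log2 difference 1.49 and 0.69) and lower in roots in CCA1-ox plants (−1.72 and −1.68). XTH10 was 0.94 higher in WT roots than in WT shoots on the log2 scale, while in CCA1-ox plants it stood at 1.80, 1.89 and 2.02 FPKM in shoots and 1.95, 1.99 and 1.70 in roots and did not pass (adjusted p = 0.886). XTH5 did not pass in CCA1-ox plants either (0.11, adjusted p = 0.131), but was called higher in roots with quantile normalization (0.25, adjusted p = 0.00313), after rescaling to the summed fragments (0.25, adjusted p = 0.00273) and without CCA1-ox shoot replicate 2 (0.17, adjusted p = 0.0386). In CCA1-ox plants 14 members were higher in roots and 11 in shoots. Of all genes tested 86.7% were called, 45.2% as higher in roots and 41.5% as lower.

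In all, 11 XTH genes lie within 10000 bases of another member, in 4 tandem clusters, and neighbours shared some changes and differed in others. On chromosome 4, XTH24, XTH18 and XTH19 follow each other on the minus strand with 5161 and 1500 bases between them and no other gene of the table. In CCA1-ox shoots all 3 were called higher (2.95, 0.30 and 0.80), though the call of XTH18 was lost with quantile normalization. Their levels there were far apart, with XTH24 at 139.9 ± 1.49 FPKM and its neighbours at 0.524 ± 0.0856 and 2.03 ± 0.509. In roots XTH24 fell (−0.27) while XTH18 rose (0.61). XTH23 and XTH14, 363 bases apart on the plus strand, both rose in roots (0.43 and 0.48), and XTH23 alone had fragments in shoots. On chromosome 5, XTH12, XTH13, XTH25 and XTH22 lie in that order on the minus strand. The former pair gave 3 fragments in all 6 shoot libraries together, while XTH22 was higher in shoots than in roots (−1.62 in WT). XTH1 had no fragment in any library, and its neighbour XTH2, 3139 bases away, was seen in roots.

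Fragments can be shared between near-identical copies, so the coding sequences were compared in all 528 pairs of members. The closest were XTH17 and XTH18, at 92.2% identity over 849 aligned bases, followed by XTH12 and XTH13 (89.7%), XTH18 and XTH19 (89.2%) and XTH17 and XTH19 (88.6%). No pair shared an identical stretch of 100 bases. A stretch of 50 bases was shared by XTH18 and XTH19 and by XTH17 and XTH19 alone, so the values of these 3 genes are the ones most open to mixing between copies. UTRs were not compared.

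Among genes that build xyloglucan, 16 of 17 were tested. In CCA1-ox shoots 1 rose and 3 fell (median log2 fold change −0.011), where 26.6% of all genes tested rose and 28.9% fell. CSLC4, the main synthase of the glucan backbone, rose from 27.5 ± 0.521 to 32.1 ± 0.827 FPKM (0.22, adjusted p = 2.25e-04). AXY4, which acetylates xyloglucan, fell from 12.9 ± 0.626 to 9.44 ± 0.858 FPKM (−0.42, adjusted p = 8.90e-05), and the xylosyltransferase gene XXT1 from 11.3 ± 0.367 to 8.69 ± 0.157 FPKM (−0.35, adjusted p = 1.25e-04). CSLC5, a relative of CSLC4, fell as well (−0.15, adjusted p = 0.00250), a call lost after rescaling to the summed fragments (−0.043, adjusted p = 0.330), under which 5 synthesis genes rose and 2 fell in shoots. In CCA1-ox roots 9 of the 16 rose and none fell, where 20.8% of all genes tested rose and 15.4% fell (median 0.13, against 0.016 over all genes). CSLC4 went from 13.7 ± 0.626 to 20.03 ± 0.343 FPKM (0.52, adjusted p = 1.61e-07) and MUR1, which makes the precursor of fucose, from 70.9 ± 2.55 to 95.4 ± 2.90 FPKM (0.42, adjusted p = 1.84e-06). AXY4 rose by 0.39 (adjusted p = 3.12e-04) and XXT1 by 0.38 (adjusted p = 1.34e-04), opposite to their change in shoots.

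Of 5 genes that take xyloglucan apart, 1 rose and 3 fell in shoots, and 2 rose and 2 fell in roots. Of all genes tested 26.6% rose and 28.9% fell in shoots, and 20.8% rose and 15.4% fell in roots. After rescaling to the summed fragments 2 rose and 1 fell in shoots, and 1 rose and 2 fell in roots. XYL1, the α-xylosidase that trims xyloglucan oligosaccharides, rose in shoots from 135 ± 1.51 to 172 ± 2.07 FPKM (0.35, adjusted p = 4.21e-07) and fell in roots (−0.12, adjusted p = 0.00846). The β-galactosidase gene BGAL10 fell in both organs, from 29.7 ± 1.07 to 20.9 ± 0.615 FPKM (−0.49, adjusted p = 1.16e-07) in shoots and from 11.5 ± 0.220 to 8.65 ± 0.113 FPKM (−0.37, adjusted p = 4.58e-06) in roots. AXY8, an α-fucosidase gene, fell in shoots (−0.16, adjusted p = 0.00793) and rose in roots (0.16, adjusted p = 0.00992), but neither call passed after that rescaling (−0.052, adjusted p = 0.342 and 0.10, adjusted p = 0.0899), nor the one in roots without WT root replicate 2 (0.12, adjusted p = 0.0502). The β-glucosidase gene BGLC1 had log2 fold changes of −0.082 in shoots (adjusted p = 0.0223) and 0.15 in roots (adjusted p = 8.69e-04). Its shoot value turned to 0.024, adjusted p = 0.478 after the rescaling, and did not pass without WT shoot replicate 2 (−0.071, adjusted p = 0.0812) or CCA1-ox shoot replicate 1 (−0.061, adjusted p = 0.102). In roots it did not pass with quantile normalization (0.073, adjusted p = 0.0529).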

How the data were processed

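The authors deposited FPKM for 33010 genes in 12 libraries, made from total RNA with a stranded kit per the labels' protocols. The genome build was TAIR10 (per the submitters' processing notes). The sources used here name no aligner, counter or strand setting. Multiplied by gene length, all FPKM values of a library were whole multiples of its smallest step (within 0.1), which gave the fragments per gene. The library size behind the deposited FPKM was 0.904 to 1.15 times the summed fragments, and this ratio differed between groups. Of 12 replicate pairs none was identical, and all differed beyond sampling noise (median chi-square per gene 1.01 to 1.29, where noise alone gives 0.455).

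The 20975 genes that reached FPKM 1 in 3 or more libraries were fitted as 4 group means of log2(FPKM + 1) in limma 3.58.1 (R 4.3.3), with trended moderated variances and two-sided tests adjusted by Benjamini-Hochberg over all these genes. Alternatives were other pseudocounts (0.1 and 5), filters (none and FPKM 5), scalings and fits, and leaving out each library. Sequences came from RefSeq TAIR10.1, where 32532 of 32548 genes matched by locus tag have the deposited positions. Members and lists were chosen with earlier results of these data known. Values in every library are given for the 22 members with the largest changes or highest levels by a fixed rule (8 per genotype comparison, 5 each way for the difference between organs, 6 each way between WT organs, 5 most abundant per WT organ), and up to 4 called genes per pathway list. The upstream sequence of 1 further member is not reported here. The 3-fragment floor covers counting error only.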

Additional observations from a re-analysis of the deposited data

Results flagged for a closer look

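In 24 members the effect of CCA1 overexpression differed between organs by the limma test of the root effect minus the shoot effect, at adjusted p under 0.05 over all genes. The difference, on the log2(FPKM + 1) scale, was negative in 12: XTH24 (−3.21), XTH20 (−2.76), XTH31 (−2.37), XTH28 (−1.06), XTH10 (−0.95), XTH7 (−0.90), XTH15 (−0.75), XTH5 (−0.71), XTH22 (−0.55), XTH19 (−0.54), XTH32 (−0.44) and XTH9 (−0.28). It was positive in 12: XTH16 (0.999), XTH29 (0.74), XTH8 (0.68), XTH2 (0.67), XTH27 (0.60), XTH21 (0.51), XTH14 (0.48), XTH30 (0.44), XTH13 (0.44), XTH6 (0.41), XTH12 (0.33) and XTH18 (0.31). XTH13 and XTH14 had no fragment in shoots and XTH2, XTH12 and XTH21 at most 4 in any shoot library, so for these the difference is the root effect set against a level near 0 in shoots. XTH6 has the same limit in roots, with 0, 3 and 0 fragments in WT and 0, 0 and 0 in CCA1-ox libraries, so its difference is the shoot fall set against a level near 0, and it was not called with a pseudocount of 0.1 (0.28, adjusted p = 0.213) or with voom (−0.017, adjusted p = 0.991). None of XTH2, XTH12, XTH13, XTH14 and XTH21 was called with voom (adjusted p = 0.133 to 0.874). As XTH2 and XTH29 passed the filter through CCA1-ox roots alone, their rise in roots was fixed in advance. XTH19 was not called with a pseudocount of 5 (−0.050, adjusted p = 0.588) or with quantile normalization (−0.31, adjusted p = 0.105). XTH22 was not called with quantile normalization (−0.44, adjusted p = 0.0544) or with a pseudocount of 0.1 (−0.64, adjusted p = 0.0545). By ratio of means XTH18 rose 2.24-fold in shoots and 1.54-fold in roots. Its difference turned to −0.29 with a pseudocount of 0.1 (adjusted p = 0.250) and −0.51 with voom (adjusted p = 0.312). Over all genes 50.7% were called in this test.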

How the results depend on the processing

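Under up to 21 alternatives, direction and call were kept by 27 of 27 members between WT organs, 25 of 27 between CCA1-ox organs, 18 of the 25 members with fragments in shoots, 20 of 27 in roots, and 14 of 27 for the difference between organs. Only alternatives under which a member was still tested are counted. Between WT organs XTH2 and XTH29 were tested under 16 of 21, as leaving out any CCA1-ox root library drops them. That loss gives the lower member counts between WT organs below. Leaving out each library gave 13 to 16 members higher in roots, 10 to 12 higher and 12 to 13 lower in the difference, 16 to 18 higher in roots than in shoots of WT and 12 to 15 of CCA1-ox plants. Counts of members stayed within 1.5 times under every alternative but one: with voom 5 members had a higher difference between organs, against 12. After rescaling to the summed fragments 3914 of all genes fell in shoots against 6055, and the differences between organs were 3145 higher and 7697 lower against 5705 and 4931. Signs of members turned for values that had not been called, apart from those of XTH6 and XTH18 in the difference between organs; the cause was not tested. In shoots XTH7 turned to 0.076 with quantile normalization and 0.035 with rescaling, XTH21 to −0.0096 with quantile normalization, and XTH30 and XTH32 to 0.083 and 0.050 with rescaling. In the difference between organs XTH18 and XTH23 turned to −0.29 and −0.31 with a pseudocount of 0.1 and −0.51 and −0.43 with voom, XTH6 to −0.017 with voom, and XTH17 to 0.11 with a pseudocount of 5 and 0.066 with quantile normalization. XTH10 between CCA1-ox organs turned to 0.098 with rescaling. Leaving out 1 library gave signs of both kinds for XTH30 (−0.028 to 0.025) and XTH21 (−0.020 to 0.040) in shoots, XTH22 in roots (−0.20 to 0.083), XTH17 in the difference (−0.12 to 0.064) and XTH10 between CCA1-ox organs (−0.041 to 0.033). Replicate numbers did not pair the libraries (correlation of deviations −0.044 to 0.042 over 18 same-numbered pairs). With the number as a replicate block the member counts were 13 higher and 5 lower in shoots, 16 and 7 in roots, and 12 and 12 for the difference. The alternatives for pathway and marker genes were chosen after seeing the data, and there BGLC1 in shoots turned to 0.024 with rescaling. Depth limits members with under about 10 fragments in a library.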
